A study of Saccharomyces cerevisiae with 12 samples.

Results

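Ergosterol is the main sterol of yeast membranes, and its synthesis was followed here through 10 genes of the budding yeast Saccharomyces cerevisiae. They were HMG1, HMG2, ERG1, ERG11, NCP1, ERG25, ERG2, ERG3 and ERG5, which encode enzymes or an electron donor of the pathway, and UPC2, which encodes a transcription factor that activates it. They were chosen by gene name, with RefSeq names matched to the transcripts of the deposited tables, and all 10 were found among 5967 transcripts. Total RNA was sequenced in 12 libraries in 6 groups of 2. The mutant, written edc3∆lsm4∆C, lacks EDC3 and the Q/N-rich C-terminal domain of Lsm4. Edc3 and Lsm4 take part in building P-bodies, the cytoplasmic granules of untranslated mRNA and decay factors. It was grown with 100 mM sodium perchlorate (NaClO4) throughout, or untreated. BY4741, a haploid laboratory strain labelled wild type (WT), was grown in the same 2 ways. In a separate set, BY4741 cells either received a 5.6 Mach shock wave and were then regrown, or received none. Growth was without uracil at 30 °C to an OD600 between 0.4 and 0.5 in each group. Whether replicates came from separate cultures is not labelled, and p-values therefore measure the spread between these libraries alone, which may be technical. With 2 libraries a group, a test within a table had 2 residual degrees of freedom of its own.

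Sterol synthesis runs from acetyl-CoA through mevalonate to squalene, and from squalene through lanosterol to ergosterol. HMG-CoA reductase, made from the gene pair HMG1 and HMG2, is the regulated step of the early part. Squalene epoxidase (Erg1) needs molecular oxygen, as do the later demethylation and desaturation steps, and several of these enzymes contain heme or iron, so the pathway is tied to oxygen and heme supply. Upc2 and its paralog Ecm22 are zinc cluster proteins that sense falling sterol and bind the sterol response element in the promoters of many ERG genes. Upc2 also acts on genes of sterol uptake and anaerobic growth.

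The core letters of that element, TCGTATA, were looked for on both strands in the 500 bases before each coding start, in the RefSeq R64 genome. Coordinates are those of R64, since the authors' own build is not named in the sources used here. Of 5940 genes, 417 (7.02%) held the letters, and of the 10 sterol genes 4 did, namely ERG25, ERG1, ERG3 and ERG2. No match was found upstream of HMG1, HMG2, ERG11, NCP1, ERG5 and UPC2. That says only that these letters are not in these windows. The matched stretches are shown with 20 bases on each side, or up to the end of the window, because they hold the letters of the element that Upc2 is known to bind. Matches are in capitals, each sequence is written 5′ to 3′ on the strand of its gene, and TATACGA is the same element read on the opposite strand. The ERG25 stretch lies at chrVII:610064-610127 (plus strand), ERG1 at chrVII:848779-848825 (minus strand), ERG3 at chrXII:253515-253601 (plus strand) and ERG2 at chrXIII:667332-667378 (plus strand). Among the other 18 enzymes of the pathway 5 held a match (ERG13, ERG8, ERG28, ERG6 and CYB5), and the stretches of CYB5 at chrXIV:417551-417597 and of ERG28 at chrV:238268-238314, both on the minus strand, are given because these 2 of the 18 differed most between the untreated strains.
ERG25: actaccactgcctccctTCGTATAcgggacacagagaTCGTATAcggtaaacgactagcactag
ERG1: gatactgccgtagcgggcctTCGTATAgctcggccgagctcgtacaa
ERG3: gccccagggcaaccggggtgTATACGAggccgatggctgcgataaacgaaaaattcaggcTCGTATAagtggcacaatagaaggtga
ERG2: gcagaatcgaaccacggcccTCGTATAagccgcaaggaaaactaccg
CYB5: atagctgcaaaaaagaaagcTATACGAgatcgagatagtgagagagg
ERG28: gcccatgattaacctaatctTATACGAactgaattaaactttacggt

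**Figure D1:**
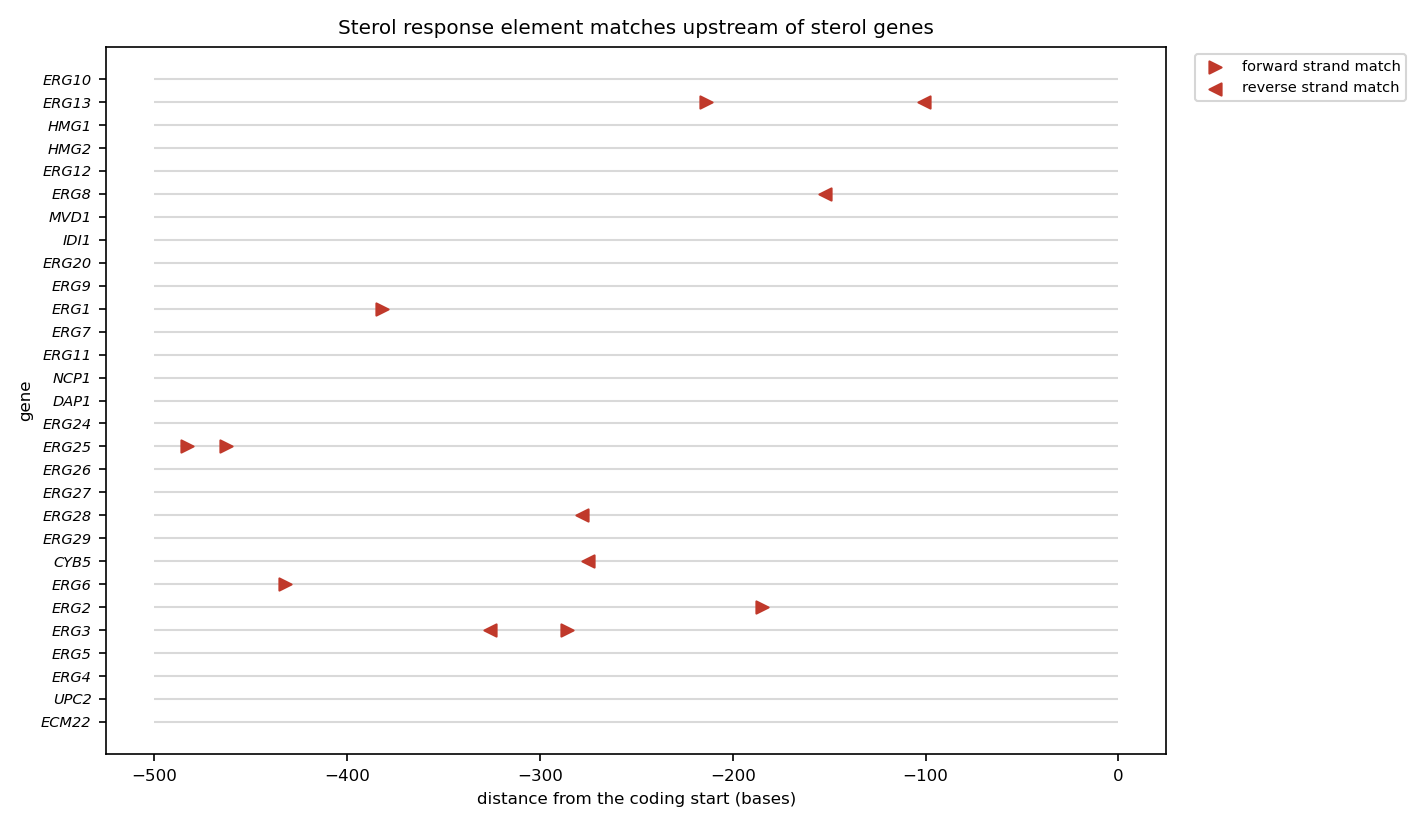
Positions of the sterol response element core upstream of 27 pathway enzyme genes, UPC2 and ECM22. The x axis is the distance in bases from the coding start, each row is a gene, and triangles give the strand of a match relative to the gene. ERG25, ERG3 and ERG13 each hold 2 matches.

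The libraries held 14108937 to 18360737 reads on transcripts. The untreated mutant had 1.82 and 3.83 normalized reads of the deleted gene EDC3, and untreated WT had 763 and 972. LSM4 had 642 and 681, against 612 and 798, a total that cannot show whether the end of its coding region is lost. Genes outside the labelled genotype differed too. LEU2 and MET17, enzymes of leucine and methionine synthesis that BY4741 is known to lack, had 5752 and 5144, and 8077 and 9516 normalized reads in mutant cells without treatment, and 0 in both WT libraries without treatment. In perchlorate, WT replicate 2 had 26.6 for LEU2 and 59.0 for MET17, and WT replicate 1 had 0 for both. The shock set of WT held reads of them too. LEU2 and MET17 each had a mean of at least 10 normalized reads over its 4 libraries, and neither was called between shocked and unshocked cells. Summed over 7 genes specific to a cells, the level was 30.0 to 36.7 RPM (reads per 1000000 reads of the library) in the 4 mutant libraries and 570 to 2611 in the 8 WT libraries. Within these a-cell markers only AGA2 reached 0, in untreated mutant replicate 2. Over 4 genes specific to alpha cells the sum was 620 to 2268 RPM in the mutant and 37.4 to 76.5 in WT, with no marker at 0. The source label gives BY4741, an a strain, for both strains, so the mutant libraries go against it. The 2 mutations, mating type, auxotrophic markers and any further difference in strain background change together. Their parts in any strain difference below, that of HAP1 RNA included, cannot be told apart.

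In RPKM (RPM per kilobase of coding sequence), a scale on which levels of different genes can be compared, ERG25 was highest, with a median over the 12 libraries of 718 and a range of 344 to 1079. It was followed by ERG11, which encodes lanosterol 14-alpha-demethylase, with a median level of 619 (359 to 899). ERG3 had a median of 506 (284 to 702), ERG2 of 490 (358 to 703) and ERG1 of 445 (292 to 460). The ranges of these 5 over all groups overlapped, so the ranges alone do not settle their order. Within each library, ERG25 and ERG11 lay above ERG1. NCP1 had a median of 230 (205 to 292), ERG5 of 149 (76.7 to 330), HMG1 of 60.4 (45.2 to 164) and HMG2 of 46.7 (36.1 to 65.4). Neighbours in this order from NCP1 to HMG2 overlapped as well, although ERG5 lay above HMG1 within each library. The highest value of NCP1 and the lowest of ERG1 were both 292. UPC2 was lowest in the median, at 10.8, and its range of 8.01 to 16.2 lay below those of all 9 others. On R64 the early pair lies on chromosomes XIII (HMG1, 115734 to 118898) and XII (HMG2, 1032627 to 1035764). The later genes are ERG1 on VII (846933 to 848423), ERG11 on VIII (120091 to 121683), NCP1 on VIII (190543 to 192618), ERG25 on VII (610564 to 611493), ERG2 on XIII (667537 to 668205), ERG3 on XII (253861 to 254958) and ERG5 on XIII (300869 to 302485), and UPC2 lies on IV (889751 to 892492). Each is annotated as 1 coding exon. No gene of the 10 had a near-identical copy or overlapped another gene by at least 50 bases. The longest alignment of HMG1 with HMG2 was 1201 bases at 81.1% identity, and that of UPC2 with ECM22 was 978 bases at 66.7%.

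**Figure D2:**
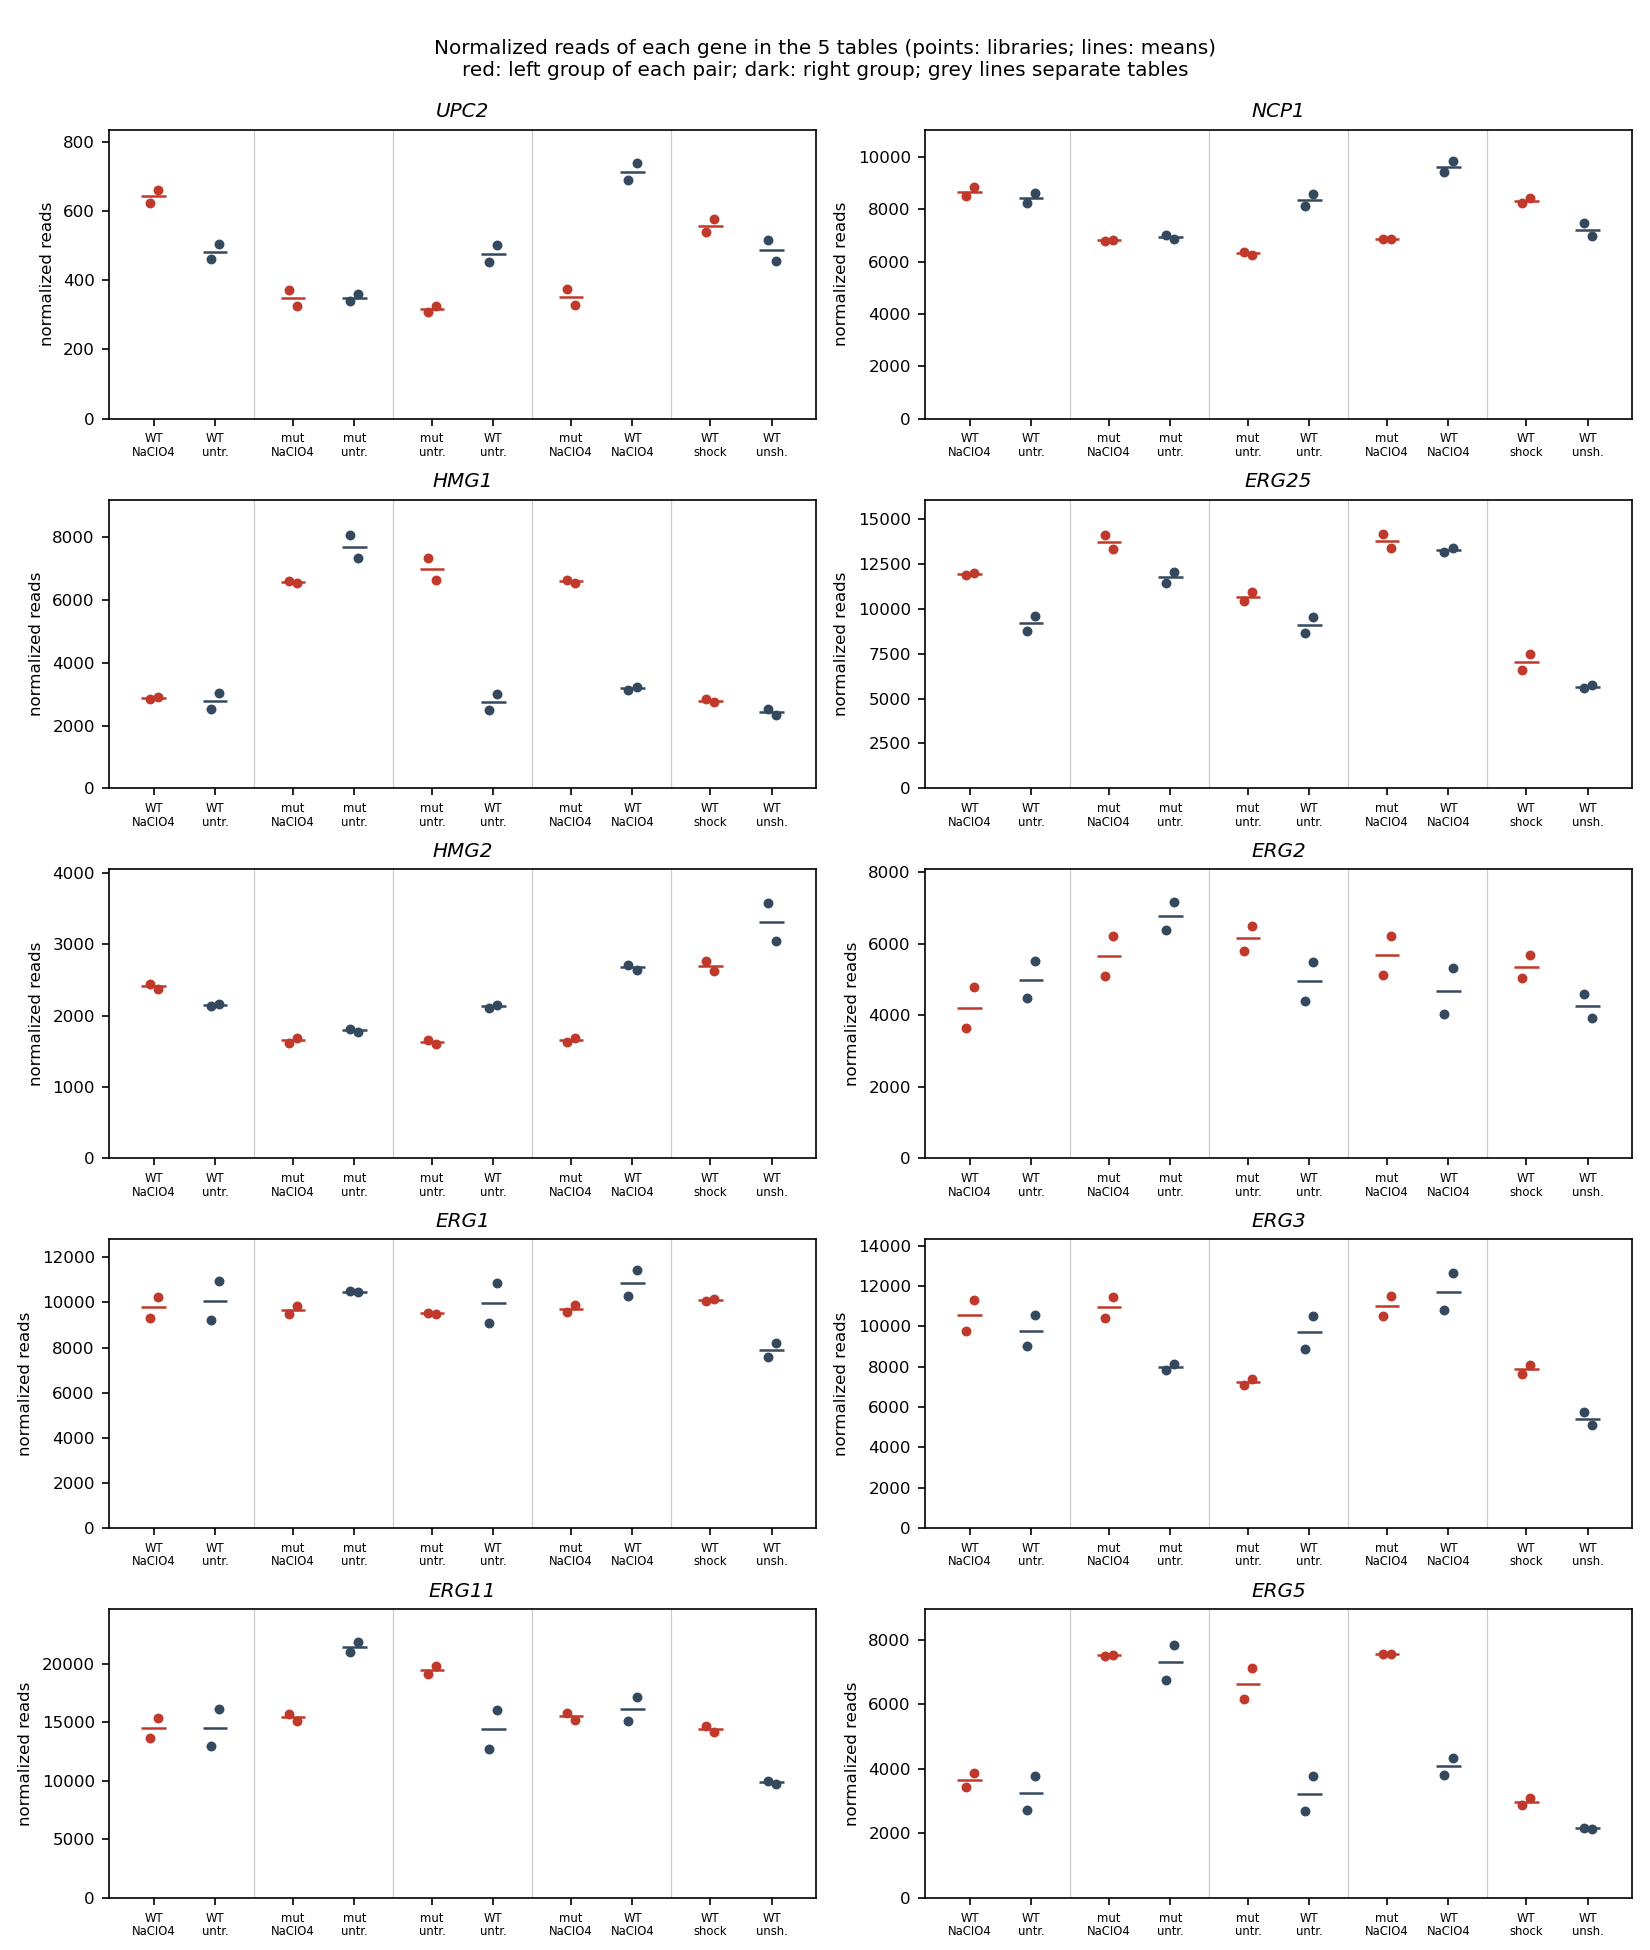
Normalized reads of each of the 10 genes in the 5 tables. Points are libraries, short lines are means of 2, and the y axis starts at 0. Each pair has its own table, so heights are compared within a pair. HMG1 and ERG5 separate the mutant from WT in both strain tables, and UPC2 lies lower in the mutant.

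The untreated mutant was set against untreated WT to ask how sterol genes differ between the strains without stress. The early enzyme HMG1 and the late enzyme ERG5 were over 2-fold higher, ERG11 was also higher, and UPC2, ERG3, NCP1 and HMG2 were lower. Thus 3 of the 10 rose and 4 fell in the mutant, where 22.5% of 5665 transcripts tested were called in either direction (limma, adjusted p under 0.05), 11.0% higher and 11.6% lower.

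HMG1 had 7333 and 6645 normalized reads in mutant libraries and 2503 and 3016 in WT libraries, and the groups lay far apart. In such bulk samples, a change in how many cells express a gene and a change in its RNA per cell cannot be told apart. The mean was 2.53-fold that of WT, with a log2 fold change of 1.34 ± 0.12 (SE; n = 2 libraries a group; limma, adjusted p = 0.00102). HMG2, the paralog that is known to be favoured when oxygen is low, went the other way, with 1654 and 1608 in the mutant against 2108 and 2152 in WT. Its log2 fold change was -0.39 ± 0.10 (adjusted p = 0.0356).

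ERG5, the cytochrome P450 that desaturates the sterol side chain, had 6147 and 7122 normalized reads in the mutant, against 2680 and 3764 in WT. Its log2 fold change was 1.06 ± 0.17 (adjusted p = 0.00796), a 2.06-fold difference of the means. ERG11, the other P450 of the pathway, had 19126 and 19810 in the mutant and 12755 and 16058 in WT, with a log2 fold change of 0.44 ± 0.12 (adjusted p = 0.0466). NCP1, the reductase that passes electrons to both P450s, was lower, with 6391 and 6242 in the mutant against 8119 and 8577 in WT (log2 fold change -0.40 ± 0.09, adjusted p = 0.0223). In untreated cells both P450 genes thus differed from NCP1 in direction, though the calls of ERG11 and NCP1 did not hold in every fit. In perchlorate ERG11 was at -0.05 between the strains (limma, adjusted p = 0.739), so there this was seen for ERG5 alone.

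ERG3, the C-5 desaturase, had 7111 and 7374 normalized reads in the mutant, against 8878 and 10517 in WT (log2 fold change -0.42 ± 0.11, adjusted p = 0.0391). UPC2 had 309 and 326 in the mutant and 454 and 501 in WT, with a log2 fold change of -0.58 ± 0.13 (adjusted p = 0.0235). For these genes all mutant values lay below all WT values. ERG1, squalene epoxidase, overlapped between the strains, at 9547 and 9478 in the mutant and 9076 and 10883 in WT. ERG2, the C-8 isomerase, had 5806 and 6505 against 4410 and 5489 (log2 fold change 0.32 ± 0.13, adjusted p = 0.138). ERG25, a C-4 methyl sterol oxidase, had 10417 and 10917 against 8626 and 9552 (0.23 ± 0.09, adjusted p = 0.134). Neither passed the test, although their groups did not overlap. The groups did not overlap in 9 of the 10 genes, against 63.2% of all transcripts tested.

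HMG1 and ERG5 passed the test under every alternative and with any 1 library left out, and the other 5 calls did not. Without untreated mutant replicate 1 the adjusted p was 0.202 for ERG3, 0.0841 for ERG11, 0.259 for HMG2, 0.157 for NCP1 and 0.184 for UPC2, and without replicate 2 it was 0.126, 0.138, 0.302, 0.197 and 0.102 in the same order of genes. Without untreated WT replicate 1 it was 0.0540 for ERG11, at 0.28, and with no filter on low values 0.0506. Without untreated WT replicate 2 it was 0.0638 for ERG3, 0.0535 for HMG2 and 0.0521 for UPC2, and ERG2 gained a call at 0.0312. The log2 fold changes themselves moved little when 1 mutant library was left out. Without mutant replicate 1 they were -0.39 for ERG3, 0.47 for ERG11, -0.41 for HMG2, -0.42 for NCP1 and -0.55 for UPC2. Without mutant replicate 2 they were -0.44, 0.42, -0.36, -0.38 and -0.62 in that order. Scaled to total reads, the median log2 fold change of all transcripts was 0.177, against 0.01 in the main scaling. With this scaling 5 of the 10 were called higher (ERG2, ERG5, ERG11, ERG25 and HMG1) and 0 lower. On that scale UPC2 was at -0.42 (adjusted p = 0.0593), NCP1 at -0.23, ERG3 at -0.25 and HMG2 at -0.22, so the falls hold relative to the median transcript.

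Of the 18 other enzymes and partners of the pathway, 10 were higher in the untreated mutant and 0 lower. Among all transcripts tested, 11.0% were called higher and 11.6% lower. The median log2 fold change of the list was 0.38, against 0.01 over all transcripts tested. CYB5, cytochrome b5, an electron donor of the later steps, had 2913 and 3270 normalized reads in the mutant against 801 and 1001 in WT (log2 fold change 1.78 ± 0.14, adjusted p = 0.000566). ERG28, a scaffold of the C-4 demethylation complex, had 1388 and 1281 against 617 and 708 (1.01 ± 0.12, adjusted p = 0.00253). The remaining 8 had log2 fold changes between 0.37 and 0.72. They were DAP1 (0.72), a heme-binding partner of Erg11, ERG29 (0.67), ERG26 (0.57), the C-3 sterol dehydrogenase of the complex, ERG8 (0.45), ERG13 (0.41), MVD1 (0.41) and IDI1 (0.39) of the mevalonate part, and ERG7 (0.37), lanosterol synthase. Without untreated mutant replicate 1 the count was 4 and without replicate 2 it was 3, and the direction was higher in each. The calls of ERG13, ERG8, MVD1, IDI1 and ERG7 ended without either (adjusted p = 0.118 to 0.341), that of ERG26 without replicate 1 (0.103), and those of ERG29 (0.141) and DAP1 (0.0782) without replicate 2. Without untreated WT replicate 1 MVD1 was at 0.0502, and without WT replicate 2 IDI1 was at 0.0678 and ERG7 at 0.0591.

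**Figure D3:**
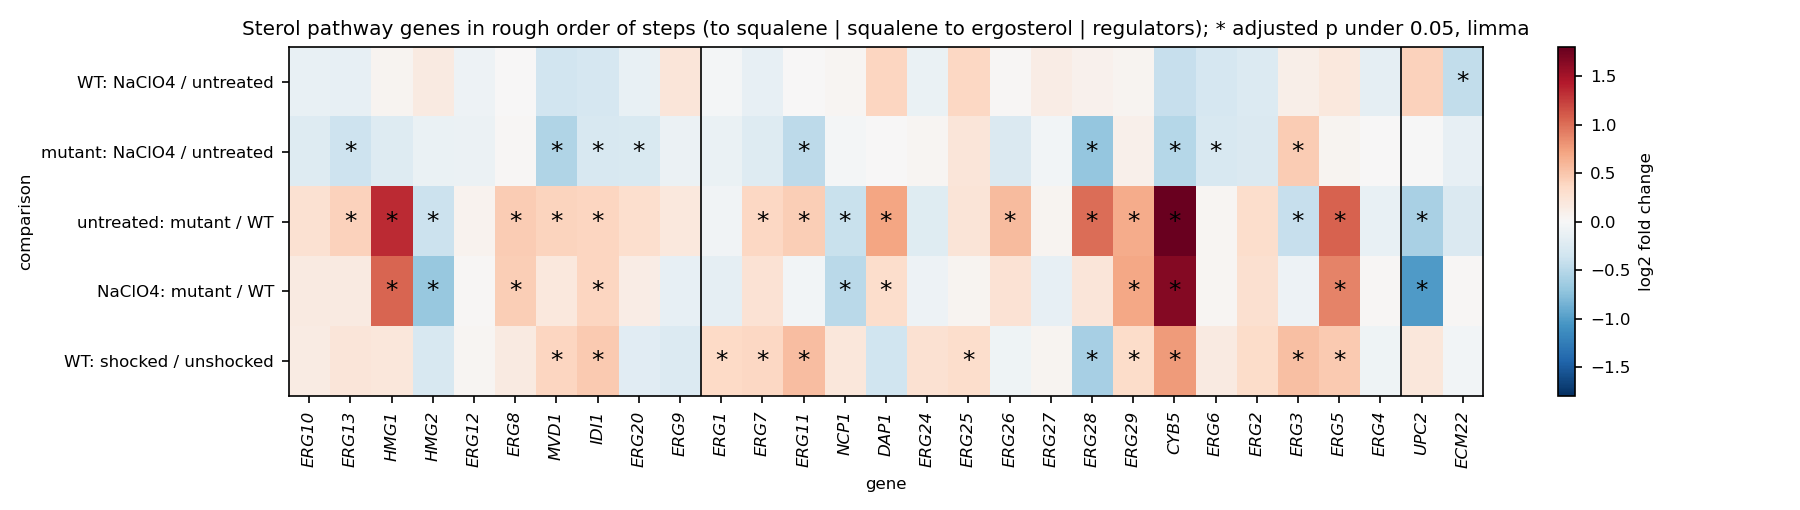
Log2 fold changes of 27 pathway enzyme genes, UPC2 and ECM22 in the 5 comparisons, in rough order of the pathway. Red is higher and blue lower in the group before the slash, and a star marks an adjusted p under 0.05 (limma). The row for untreated mutant over WT has 13 starred red cells among the enzymes (3 of the 10 genes and 10 of the other 18).

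Genes of the heme and oxygen response also differed between the strains. HAP1, which encodes the heme-dependent activator that is known to act on CYC1, CYT1, YHB1 and HMG1, had 1840 and 1354 normalized reads in the mutant and 4157 and 3189 in WT (log2 fold change -1.21 ± 0.19, adjusted p = 0.00657). BY4741 is known to carry a Ty1 insertion in HAP1 that impairs the protein. Of 9 other heme and oxygen regulated genes, 4 were higher (CYC1, CYC7, YHB1 and CYT1) and 3 lower (ANB1, COX5B and AAC3). The shares over all transcripts tested were 11.0% higher and 11.6% lower. CYC1, cytochrome c, had 11060 and 10637 in the mutant and 1231 and 1128 in WT (log2 fold change 3.20 ± 0.10, adjusted p = 1.02e-05). COX5B, the low-oxygen form of a cytochrome oxidase subunit, had 249 and 202 against 1032 and 967 (-2.15 ± 0.15, adjusted p = 0.000303), and ANB1, a hypoxic form of translation factor eIF5A, had 7.28 and 12.5 against 67.9 and 51.0 (-2.50 ± 0.36, adjusted p = 0.00475). ROX1, which encodes a heme-induced repressor of hypoxic genes, was at 0.83 ± 0.14 (adjusted p = 0.00815) and MOT3, another repressor, at 0.75 ± 0.11 (adjusted p = 0.00505). SUT1, a regulator of sterol uptake, was lower (adjusted p = 0.0338), and its call ended without untreated WT replicate 1 (0.0801) or mutant replicate 2 (0.177) and when scaled to total reads (0.0741). The part of these strain differences in the sterol values was not tested.

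Beyond synthesis, 5 of 7 genes of sterol esters and uptake differed in the untreated mutant, beside 22.5% of all transcripts tested. AUS1, a sterol importer, had 178 and 149 normalized reads in the mutant and 485 and 594 in WT (log2 fold change -1.72 ± 0.17, adjusted p = 0.00129). ARE1, a sterol acyltransferase whose coding region overlaps a neighbour and whose value is therefore uncertain, was at -0.65 ± 0.11 (adjusted p = 0.00998). YEH1, a steryl ester hydrolase, was at 0.61 ± 0.14 (adjusted p = 0.0250), and its call ended without untreated WT replicate 1 (0.0520) or mutant replicate 2 (0.195). The other calls were ARE2 (higher) and TGL1 (lower), and without either untreated mutant library 3 genes of this list were called. The call of ARE2 ended without mutant replicate 1 (0.187), without WT replicate 2 (0.0968, at 0.38) and with no filter (0.0505), and that of TGL1 without mutant replicate 1 (0.109) or 2 (0.206) and when scaled to total reads (0.0885, at -0.33). Of the anaerobic cell wall genes on which Upc2 is known to act, TIR1 fell, with 17.3 and 15.3 in the mutant against 107 and 175 in WT (-2.99 ± 0.30, adjusted p = 0.00133). It was the only call among the 5 of 6 tested. Of 9 genes on other branches from farnesyl pyrophosphate 4 were higher, beside 11.0% of all transcripts tested. They were COX10 of heme A synthesis (1.06 ± 0.12, adjusted p = 0.00178), COQ2, MOD5 and COQ1. Without mutant replicate 1 the count was 1, with COQ2 at 0.0591, MOD5 at 0.0647 and COQ1 at 0.150 (adjusted p), and MOD5 also lost its call without mutant replicate 2 (0.175) or WT replicate 1 (0.0632). Of 7 genes of HMG-CoA reductase turnover 0 passed the limma test, and 2 had an unadjusted p under 0.05 (NSG1 and NSG2), and edgeR and DESeq2 called 0. NSG1 was at -0.32 ± 0.10 (adjusted p = 0.0736).

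In perchlorate the mutant was set against WT in the same salt. HMG1 and ERG5 were again higher and UPC2, HMG2 and NCP1 lower, so 2 of the 10 rose and 3 fell, where 31.9% of 5701 transcripts were called, 16.3% higher and 15.6% lower. These 5 calls held with any 1 library left out. Scaled to total reads, where the median of all transcripts was 0.146, they held too, and ERG2 gained a call (higher, adjusted p = 0.0357).

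UPC2 had 374 and 328 normalized reads in the perchlorate mutant, against 690 and 738 in perchlorate WT, with a log2 fold change of -1.03 ± 0.11 (adjusted p = 0.000242). The mutant mean was 0.491 of the WT mean. HMG1 had 6631 and 6546 in the mutant and 3136 and 3239 in WT (log2 fold change 1.05 ± 0.09, adjusted p = 6.97e-05), and HMG2 had 1634 and 1689 against 2710 and 2645 (-0.69 ± 0.09, adjusted p = 0.000582). ERG5 had 7548 and 7567 against 3815 and 4332 (0.89 ± 0.10, adjusted p = 0.000283). NCP1 had 6856 and 6852 against 9421 and 9864 (-0.49 ± 0.10, adjusted p = 0.00525). In each of these 5 genes the replicates lay close together and the strains far apart. The groups did not overlap in 7 of the 10 genes, against 69.6% of all transcripts tested.

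The other 5 sterol genes did not pass the test in perchlorate. ERG11 had 15811 and 15195 normalized reads in the mutant, against 15078 and 17178 in WT (-0.05 ± 0.11, adjusted p = 0.739), and ERG3 had 10505 and 11485 against 10802 and 12638 (-0.09 ± 0.12, adjusted p = 0.581). Both had passed in untreated cells. ERG1 had 9559 and 9892 against 10298 and 11443 (-0.16 ± 0.11, adjusted p = 0.271), ERG25 had 14179 and 13375 against 13137 and 13355 (0.06 ± 0.10, adjusted p = 0.702), and ERG2 had 5131 and 6230 against 4034 and 5335 (0.29 ± 0.15, adjusted p = 0.175). Without perchlorate WT replicate 2, which had the LEU2 and MET17 reads, ERG2 gained a call at 0.49 (adjusted p = 0.0487).

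Of the 18 other pathway genes 5 were higher in the perchlorate mutant and 0 lower, beside 16.3% and 15.6% of all transcripts. The median log2 fold change of the 18 was 0.18, against -0.01 over all transcripts. CYB5 had 2411 and 2352 normalized reads in the mutant and 729 and 787 in WT (1.65 ± 0.09, adjusted p = 6.72e-06), and ERG29 had 729 and 802 against 486 and 454 (0.70 ± 0.11, adjusted p = 0.00131). ERG8, phosphomevalonate kinase, was at 0.44, IDI1, isopentenyl diphosphate isomerase, at 0.39 and DAP1 at 0.31. The count was 3 without mutant replicate 1 and 3 without WT replicate 2, and 10 when scaled to total reads. The call of DAP1 ended without each of the 4 libraries (adjusted p = 0.0721 to 0.221) and in DESeq2 (0.0738), and that of IDI1 without mutant replicate 1 (0.113) or WT replicate 2 (0.0545). HAP1 was lower again, at 1391 and 1217 against 3714 and 2929 (-1.34 ± 0.13, adjusted p = 0.000118). Of the 9 other heme and oxygen genes 7 were called, beside 31.9% of all transcripts. YHB1, a nitric oxide dioxygenase, was at 3.71 ± 0.14 (adjusted p = 7.66e-07), CYC1 at 2.82 ± 0.10 (adjusted p = 5.44e-07) and COX5B at -1.32 ± 0.11 (adjusted p = 6.14e-05). CYT1 and CYC7 were also higher and OLE1 lower. ANB1 passed too, at -1.09 (adjusted p = 0.0460), but its call ended without mutant replicate 1 (0.183), WT replicate 1 (0.0864) or WT replicate 2 (0.0913), when scaled to total reads (0.0614) and in DESeq2 (0.125). MOT3 was at 0.54 ± 0.18 (adjusted p = 0.0477), and its call ended without WT replicate 2 (0.231, at 0.25) and with no filter (0.0518).

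Among genes of HMG-CoA reductase degradation and its regulators, 4 of 7 were lower in the perchlorate mutant and 0 higher. Of all transcripts tested, 15.6% were called lower and 16.3% higher. HRD3, a subunit of the ubiquitin ligase that degrades Hmg2, had 1006 and 921 normalized reads in the mutant and 1476 and 1378 in WT (-0.57 ± 0.10, adjusted p = 0.00279). NSG1, a stabilizer of Hmg2, was at -0.47 (adjusted p = 0.0111) and HRD1, the ligase itself, at -0.40 (adjusted p = 0.0113), and CUE1 at -0.31 (adjusted p = 0.0404). The count was 2 without WT replicate 1, WT replicate 2 or mutant replicate 1, and 1 when scaled to total reads. The call of HRD1 ended without WT replicate 1 (0.0583) or mutant replicate 1 (0.0522) and when scaled to total reads (0.127, at -0.24), and that of NSG1 without WT replicate 2 (0.0674) and when scaled to total reads (0.0513, at -0.31). The call of CUE1 ended without each of the 4 libraries (0.0584 to 0.241), in DESeq2 (0.0576) and when scaled to total reads (0.262, at -0.16). Of the ester and uptake genes YEH1 was higher (0.86 ± 0.12, adjusted p = 0.000672) and ARE1 (-0.65 ± 0.09, adjusted p = 0.000891) and TGL1 (-0.62 ± 0.10, adjusted p = 0.00169) were lower. TIR1 had 15.8 and 19.3 in the mutant against 189 and 187 in WT (-3.35 ± 0.21, adjusted p = 1.14e-05), and DAN4, another anaerobic mannoprotein gene, had 177 and 147 against 398 and 347 (-1.20 ± 0.14, adjusted p = 0.000364). TIR4 was at -0.52 (adjusted p = 0.0266) and lost its call without WT replicate 1 (0.0751), WT replicate 2 (0.0829) or mutant replicate 1 (0.158), in DESeq2 (0.0711) and when scaled to total reads (0.0956). On the other branches 5 of 9 genes were higher, beside 16.3% of all transcripts. COX10 led (1.24 ± 0.11, adjusted p = 9.96e-05), with COQ2 at 0.48 and RAM1 at 0.43, and with COQ1 and MOD5. The count was 2 without WT replicate 1 or mutant replicate 2, where COQ2 was at 0.101 and 0.0754 and RAM1 at 0.0712 and 0.0738 (adjusted p). The call of MOD5 (0.36, adjusted p = 0.0469) ended without mutant replicate 1 (0.145), mutant replicate 2 (0.0777) or WT replicate 1 (0.226, at 0.23), with no filter (0.0520) and in DESeq2 (0.0712).

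**Figure D4:**
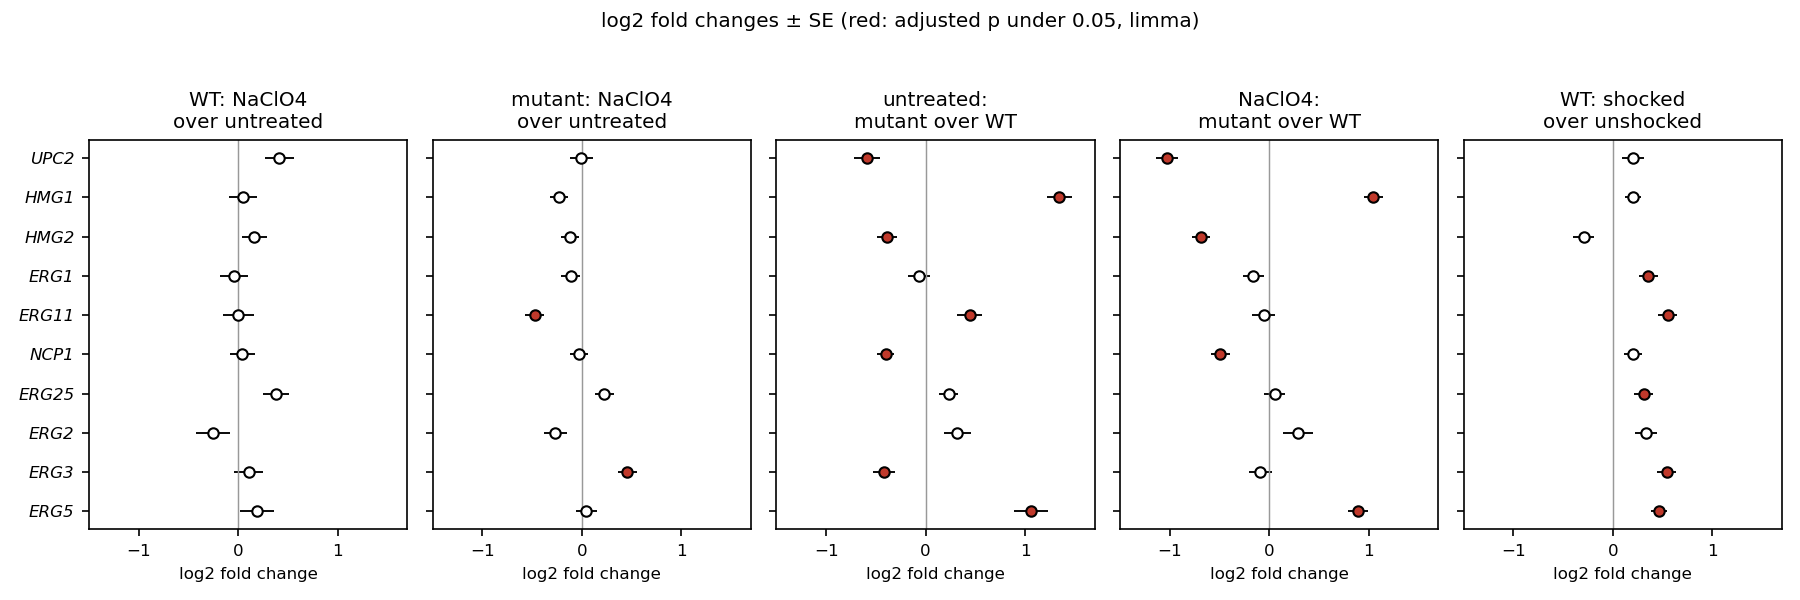
Log2 fold changes of the 10 genes with standard errors in the 5 comparisons. Filled red points passed an adjusted p of 0.05 (limma), and positive values are higher in the group named first in each panel title. HMG1 and ERG5 lie between 0.89 and 1.34 in both strain comparisons, no point is filled for perchlorate in WT, and the 5 filled points of the shock panel are all positive.

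Perchlorate was then set against no treatment within WT. Of the 10 sterol genes 0 passed the limma test, where 26.5% of 5664 transcripts were called, 14.3% higher and 12.1% lower. At an unadjusted p under 0.05 there were 2, ERG25 and UPC2, by limma and by edgeR, and DESeq2 on the recovered reads called 1 of them, ERG25 (adjusted p = 0.0290). UPC2 had 624 and 662 normalized reads in perchlorate WT, against 461 and 504 in untreated WT, and its log2 fold change was 0.41 ± 0.14 (95% interval 0.10 to 0.73, adjusted p = 0.0560). ERG25 had 11872 and 11971 against 8761 and 9602, with 0.38 ± 0.13 (0.09 to 0.67, adjusted p = 0.0563). The groups did not overlap in 3 of the 10 genes (UPC2, ERG25 and HMG2), against 67.9% of all transcripts tested. Scaled to total reads, the median of all transcripts was 0.126. On that scale UPC2 passed at 0.54 (adjusted p = 0.0282) and ERG25 at 0.50 (adjusted p = 0.0165).

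The other 8 genes had values between -0.25 and 0.19. HMG2 had 2449 and 2371 normalized reads in perchlorate WT and 2141 and 2164 in untreated WT (log2 fold change 0.16 ± 0.13, adjusted p = 0.373). HMG1 had 2834 and 2904 against 2542 and 3032, NCP1 had 8514 and 8842 against 8245 and 8622, and ERG1 had 9307 and 10257 against 9218 and 10941. ERG11 had 13627 and 15398 against 12954 and 16142, and ERG3 had 9762 and 11328 against 9017 and 10573. For these 5 genes the groups overlapped. ERG2 had 3646 and 4782 against 4479 and 5518 (-0.25 ± 0.17, adjusted p = 0.291) and ERG5 had 3448 and 3883 against 2721 and 3783 (0.19 ± 0.17, adjusted p = 0.440). The untreated WT replicates differed enough to move these values. Without WT replicate 1 ERG2 was lower and called, at -0.40 (adjusted p = 0.0464), and without WT replicate 2 ERG5 was higher and called, at 0.43 (adjusted p = 0.0449), as was UPC2 (0.48, adjusted p = 0.0163).

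None of the 18 other pathway genes passed the limma test in perchlorate WT, and 5 had an unadjusted p under 0.05 (ERG6, MVD1, IDI1, CYB5 and DAP1), with 0 called by edgeR and 0 by DESeq2. Without untreated WT replicate 1, 3 were called. ECM22, the paralog of UPC2, fell. It had 467 and 431 normalized reads in perchlorate WT, against 621 and 604 in untreated WT, with a log2 fold change of -0.45 ± 0.14 (adjusted p = 0.0426). Its call ended without perchlorate WT replicate 1 (0.204) or replicate 2 (0.293), in DESeq2 (0.0524) and when scaled to total reads (-0.32, adjusted p = 0.151).

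Of the 7 genes of sterol esters and uptake 1 was higher and 2 were lower in perchlorate WT, and of the 9 other heme and oxygen genes 2 were higher and 4 lower, beside the 26.5% of all transcripts called. AUS1 had 260 and 246 normalized reads in perchlorate and 492 and 597 without it (log2 fold change -1.10 ± 0.16, adjusted p = 0.00123). ARE2, the main sterol acyltransferase, was at 0.55 (adjusted p = 0.0316) and YEH1 at -0.50 (adjusted p = 0.0389). The call of ARE2 ended without perchlorate replicate 1 (0.216) or 2 (0.0833) or untreated replicate 2 (0.112), and that of YEH1 without perchlorate replicate 1 (0.351) or 2 (0.108) and when scaled to total reads (0.0991). PDR11, another sterol importer, was not called (adjusted p = 0.672). YHB1 had 775 and 1049 against 4338 and 5201 (-2.40 ± 0.17, adjusted p = 1.33e-05) and AAC3, a hypoxic ADP/ATP carrier, had 43.7 and 44.6 against 116 and 114 (-1.36 ± 0.22, adjusted p = 0.00230). ANB1 was at -1.18 ± 0.29 (adjusted p = 0.0160, and 0.0993 and 0.0671 without perchlorate replicates 1 and 2). OLE1 and CYT1 rose and HEM13 was the fourth that fell. Without perchlorate replicate 1 the count was 3, with CYT1 at 0.0691 and HEM13 at 0.0631 (adjusted p). HRD3 was higher (0.42, adjusted p = 0.0483) and RAM1, a farnesyltransferase subunit, lower (-0.60, adjusted p = 0.0160). Without perchlorate replicates 1 and 2 HRD3 was at 0.342 and 0.174 and RAM1 at 0.174 and 0.0993 (adjusted p), and without untreated replicate 2 HRD3 was at 0.0858. With no filter HRD3 was at 0.0509, and scaled to total reads RAM1 was at 0.0517. Of the anaerobic cell wall genes 0 of 5 tested passed in limma, edgeR or DESeq2, and 1 had an unadjusted p under 0.05, TIR2 (-0.66 ± 0.27, adjusted p = 0.0919). All 7 a-cell markers were lower in perchlorate WT, with log2 fold changes from -2.22 to -1.16. Of the alpha-cell markers 3 of 4 were tested, and 1 was higher, STE3 (0.76 ± 0.18, adjusted p = 0.0144), with MF(ALPHA)1 at 1.97 (adjusted p = 0.0694) and SAG1 at 0.20 (adjusted p = 0.336). The part of these markers in the sterol values was not tested.

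In the mutant, perchlorate against no treatment gave 1 sterol gene that rose and 1 that fell, where 33.7% of 5670 transcripts were called, 18.0% higher and 15.7% lower. ERG3 had 10431 and 11442 normalized reads in the perchlorate mutant, against 7821 and 8125 in the untreated mutant (log2 fold change 0.45 ± 0.10, adjusted p = 0.00725). ERG11 had 15698 and 15139 against 21035 and 21826 (-0.47 ± 0.10, adjusted p = 0.00592). Both calls held under every alternative and with any 1 library left out. UPC2 overlapped between the groups, with 371 and 327 against 340 and 359 (-0.01 ± 0.12, 95% interval -0.27 to 0.26, adjusted p = 0.975), and the sign of this value changed with the scaling.

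The remaining genes did not pass. HMG1 had 6583 and 6522 normalized reads in the perchlorate mutant and 8065 and 7321 in the untreated mutant (-0.23 ± 0.09, adjusted p = 0.0894), and HMG2 had 1623 and 1682 against 1819 and 1771 (-0.12 ± 0.09, adjusted p = 0.333). ERG25 had 14078 and 13326 against 11457 and 12028 (0.22 ± 0.10, adjusted p = 0.101, and 0.0189 when scaled to total reads). ERG2 had 5095 and 6207 against 6385 and 7167 (-0.27 ± 0.12, adjusted p = 0.109), and was called without untreated mutant replicate 1 (-0.35, adjusted p = 0.0459) or perchlorate mutant replicate 2 (-0.41, adjusted p = 0.0107). ERG1 had 9491 and 9855 against 10500 and 10442, ERG5 had 7494 and 7539 against 6761 and 7847, and NCP1 had 6807 and 6827 against 7029 and 6877, with adjusted p between 0.365 and 0.832. The groups did not overlap in 8 of the 10 genes, all but ERG5 and UPC2, against 69.9% of all transcripts tested.

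Of the 18 other pathway genes 7 were lower in the perchlorate mutant and 0 higher, beside 15.7% and 18.0% of all transcripts. The median of the 18 was -0.23, against 0.00 over all transcripts. ERG28 had 812 and 1008 normalized reads in perchlorate, against 1527 and 1411 without it (-0.70 ± 0.12, adjusted p = 0.00251). MVD1, mevalonate diphosphate decarboxylase, had 4385 and 4451 against 6713 and 6186 (-0.54 ± 0.09, adjusted p = 0.00232), and CYB5 had 2394 and 2344 against 3204 and 3603 (-0.52 ± 0.10, adjusted p = 0.00358). ERG13, HMG-CoA synthase, was at -0.37, ERG6, the C-24 methyltransferase, at -0.29, IDI1 at -0.29 and ERG20, farnesyl pyrophosphate synthase, at -0.28. The count was 4 when scaled to total reads, without IDI1 (0.193), ERG20 (0.167) and ERG6 (0.147), and 3 without untreated mutant replicate 2, when ERG13 (0.0641), ERG6 (0.103), IDI1 (0.187) and ERG20 (0.218) lost their calls. ERG6 and ERG20 also lost theirs without each other library (adjusted p = 0.0508 to 0.117), and IDI1 without perchlorate replicate 2 (0.153). IDI1 was at 0.0531 in DESeq2 and ERG20 at 0.0520 in edgeR.

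Of other lists in the perchlorate mutant, HAP1 (-0.42, adjusted p = 0.0475) and MOT3 (-0.34, adjusted p = 0.0364) were lower, and both calls ended without untreated replicate 1 (0.236 and 0.0704) or perchlorate replicate 2 (0.114 and 0.218) and when scaled to total reads (0.0607 and 0.129). Without untreated replicate 1 HAP1 was at -0.20. HAP1 also lost its call with no filter (0.0521) and MOT3 in DESeq2 (0.0533). YHB1 had 13122 and 13039 normalized reads against 23578 and 21456 (-0.78 ± 0.10, adjusted p = 0.000468), HEM13, an oxygen-dependent heme synthesis enzyme, had 935 and 932 against 1507 and 1513 (-0.69 ± 0.09, adjusted p = 0.000519), and OLE1, the fatty acid desaturase, had 17611 and 14944 against 28247 and 23790 (-0.68 ± 0.13, adjusted p = 0.00375). CYC1 was lower too, and COX5B was higher. CYT1 passed at 0.36 (adjusted p = 0.0498), but its call ended without perchlorate replicate 1 (0.148, at 0.24), without untreated replicate 2 (0.271, at 0.22) and with no filter (0.0524). RER2, which makes dolichol precursors, was at -0.66 ± 0.10 (adjusted p = 0.00156), RAM1 at -0.37 (adjusted p = 0.0221), NSG1 at -0.38 (adjusted p = 0.0144), TIR3 at -0.57 ± 0.13 (adjusted p = 0.0101) and TIR4 at -0.50 (adjusted p = 0.0349). Calls ended for RAM1 without untreated replicate 1 (0.0662) or perchlorate replicate 1 (0.0833), for NSG1 without perchlorate replicate 1 (0.0559) or untreated replicate 2 (0.0506), and for TIR4 without untreated replicate 1 (0.0993) or perchlorate replicate 1 (0.166) and in DESeq2 (0.0981). Scaled to total reads RAM1 was at 0.0854, NSG1 at 0.0509 and TIR4 at 0.0637 (adjusted p). Of the ester and uptake genes 0 of 7 passed the limma test, with 3 at an unadjusted p under 0.05 (ARE2, AUS1 and YEH2), 0 called by edgeR and 1 by DESeq2. ARE2 was at -0.36 ± 0.13 (adjusted p = 0.0548). All 4 alpha-cell markers were lower in perchlorate, from -4.30 to -0.79, beside 15.7% of all transcripts. Of the 4 a-cell markers tested, of 7, BAR1 was higher, beside 18.0% of all transcripts. The part of these markers in the sterol values was not tested.

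The perchlorate responses of the strains were compared as an interaction over 8 libraries. Of the 10 genes 0 differed by the limma test, where 2.53% of 5689 transcripts were called (1.86% higher and 0.668% lower), and 0 by edgeR and by DESeq2. At an unadjusted p under 0.05 there were 3, ERG11, UPC2 and HMG2. The response of ERG11 differed (mutant minus WT) by -0.48 ± 0.17 on the log2 scale (95% interval of the difference -0.87 to -0.09, adjusted p = 0.262). That of UPC2 differed by -0.42 ± 0.16 (-0.79 to -0.05, adjusted p = 0.304) and that of HMG2 by -0.28 ± 0.12 (-0.56 to -0.01, adjusted p = 0.355). ERG3 was the only gene of the 10 with a positive difference, at 0.35 ± 0.16 (-0.03 to 0.72, adjusted p = 0.409). These intervals are wide, so a p that misses the threshold does not show that the strains responded alike. Of the other 18 enzymes 0 passed in limma and edgeR, with 3 at an unadjusted p under 0.05 (ERG28, ERG9 and DAP1), and 1, ERG28, in DESeq2. AUS1 (1.44 ± 0.22, adjusted p = 0.00882), YHB1 (1.61 ± 0.21, adjusted p = 0.00547) and OLE1 (-1.64 ± 0.23, adjusted p = 0.00743) did differ in their response.

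The ratios of the paralog pairs within a library need no scaling between libraries. Per coding base, HMG1 over HMG2 was 4.02 and 3.84 in the perchlorate mutant and 4.40 and 4.10 in untreated mutant libraries, against 1.15 and 1.21 in perchlorate WT and 1.18 and 1.39 in untreated WT. It was 1.02 and 1.03 in shocked WT and 0.697 and 0.763 in unshocked WT. HMG1 was thus the more abundant transcript in all libraries but the 2 unshocked ones. UPC2 over ECM22 was 1.19 and 1.37 in perchlorate WT, against 0.661 and 0.744 in untreated WT, and it was at most 0.718 in each of the other 8 libraries. The 27 enzymes and partners together took 1.06 and 1.04% of reads in the perchlorate mutant, against 0.886 and 0.892% in perchlorate WT, and 1.08 and 1.12% in untreated mutant libraries, against 0.798 and 0.854% in WT libraries without treatment.

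**Figure D5:**
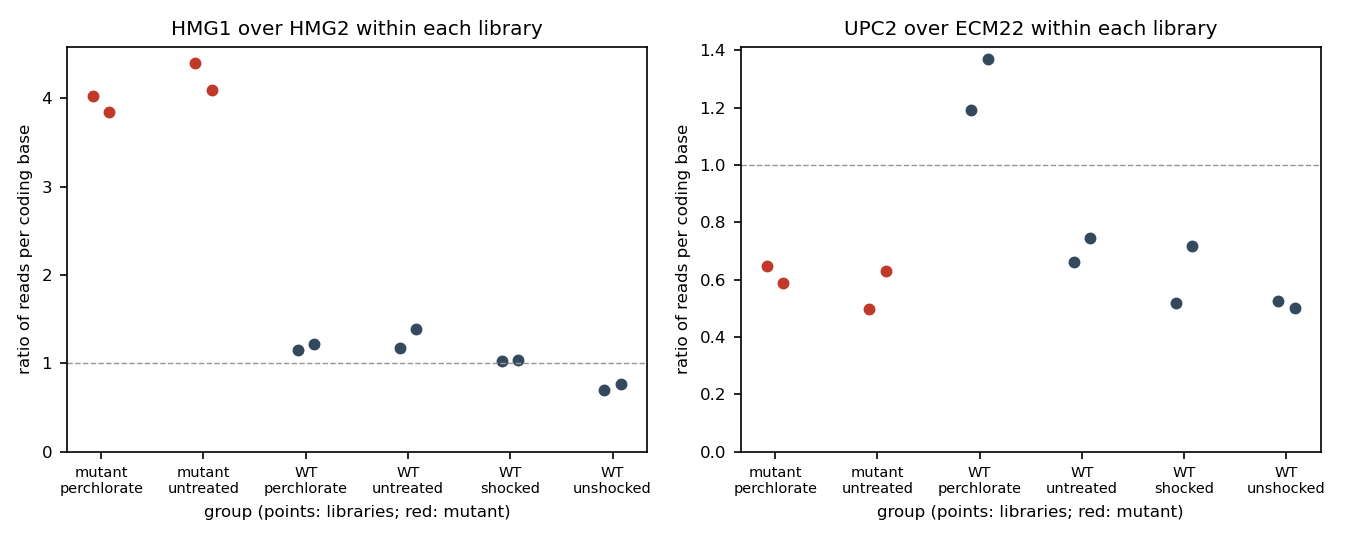
Ratio of reads per coding base of HMG1 to HMG2 (left) and of UPC2 to ECM22 (right) in each of the 12 libraries. Points are libraries, mutant in red, and the dashed line marks a ratio of 1. The 4 mutant libraries lie between 3.84 and 4.40 on the left, and the 2 perchlorate WT libraries lie above 1 on the right.

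The shock set asked whether WT cells regrown after a shock wave differ from unshocked cells. Of the 10 sterol genes 5 rose, all enzymes from squalene onward, and 0 fell, where 35.4% of 5668 transcripts were called, 18.1% higher and 17.3% lower. The groups did not overlap in 10 of the 10 genes, against 73.5% of all transcripts tested. ERG11 had 14730 and 14204 normalized reads in shocked WT, against 9999 and 9742 in unshocked WT, a log2 fold change of 0.55 ± 0.10 (adjusted p = 0.00749). ERG3 had 7651 and 8093 against 5748 and 5096 (0.54 ± 0.10, adjusted p = 0.00918), and ERG5 had 2871 and 3091 against 2166 and 2148 (0.47 ± 0.08, adjusted p = 0.00804). ERG1 had 10062 and 10163 against 7597 and 8208 (0.36 ± 0.09, adjusted p = 0.0291). ERG25 had 6613 and 7465 against 5587 and 5743 (0.31 ± 0.10, adjusted p = 0.0497). The largest of these differences was 1.47-fold.

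The other 5 genes did not pass. ERG2 had 5043 and 5681 normalized reads in shocked WT and 4602 and 3920 in unshocked WT (0.33 ± 0.11, adjusted p = 0.0639). HMG1 had 2853 and 2739 against 2520 and 2343 (0.20 ± 0.08, adjusted p = 0.108), NCP1 had 8244 and 8426 against 7498 and 6970 (0.21 ± 0.09, adjusted p = 0.128), and UPC2 had 539 and 577 against 516 and 457 (0.20 ± 0.11, 95% interval -0.06 to 0.46, adjusted p = 0.198). HMG2 was the only gene of the 10 with a negative value, at 2763 and 2628 against 3584 and 3045 (-0.29 ± 0.10, adjusted p = 0.0697). Scaled to total reads it was called lower (-0.32, adjusted p = 0.0318) and ERG25 was no longer called (0.0816), which made 4 higher and 1 lower.

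Fewer shock calls were left when an unshocked library was left out, a fit whose spread comes from the shocked pair alone. The log2 fold changes without unshocked replicate 2 were 0.53 for ERG11, 0.45 for ERG3, 0.46 for ERG5, 0.41 for ERG1 and 0.33 for ERG25. Without unshocked replicate 2, 0 of the 10 genes were called (adjusted p = 0.0693 for ERG1, 0.0687 for ERG3, 0.0803 for ERG5, 0.0507 for ERG11 and 0.153 for ERG25), and 453 transcripts in all. Without unshocked replicate 1, 2 were called (0.114 for ERG1, 0.0770 for ERG5 and 0.187 for ERG25). Without shocked replicate 2, 3 were called (0.0849 for ERG1 and 0.184 for ERG25), and without shocked replicate 1, 5, with ERG1 lost (0.0633) and ERG2 gained (0.0417). The log2 fold changes of the 5 genes kept their sign in these fits. ERG25 was at 0.0558 with TMM scaling and 0.0620 in edgeR.

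Of the 18 other pathway genes 5 were higher and 1 lower after shock, beside 18.1% and 17.3% of all transcripts. The median of the 18 was 0.16, against 0.00 over all transcripts. CYB5 had 607 and 828 normalized reads in shocked WT, against 377 and 463 in unshocked WT (0.76 ± 0.18, adjusted p = 0.0202). IDI1 was at 0.47, MVD1 at 0.38, ERG7 at 0.37 and ERG29 at 0.34. ERG28 had 903 and 856 against 1278 and 1391 (-0.60 ± 0.09, adjusted p = 0.00457). The count was 0 without unshocked replicate 2 and 1, ERG28, without unshocked replicate 1. Without unshocked replicates 1 and 2 the adjusted p was 0.167 and 0.0882 for CYB5, 0.0564 and 0.0859 for IDI1, 0.0810 and 0.0897 for MVD1, 0.126 and 0.109 for ERG7, and 0.180 and 0.187 for ERG29, and it was 0.0709 for ERG28 without replicate 2. ERG29 also lost its call without shocked replicate 1 (0.108) or 2 (0.0632), in DESeq2 (0.117) and when scaled to total reads (0.0839).

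Other lists after shock held calls in both directions, beside 18.1% of all transcripts tested called higher and 17.3% lower. SUT1 had 573 and 418 normalized reads in shocked WT, against 240 and 232 in unshocked WT (1.05 ± 0.17, adjusted p = 0.00540), and HAP1 had 3485 and 3165 against 4027 and 4259 (-0.32 ± 0.09, adjusted p = 0.0365). Of the ester and uptake genes YEH1 (0.78), YEH2 (0.38) and ARE1 were higher and TGL1 (-0.46) lower. Of the HMG-CoA reductase turnover genes HRD1 (-0.47), DFM1 (-0.38), UBC7 and NSG2 (-0.36, uncertain, since it overlaps a neighbour) were lower and NSG1 was higher. COQ1 was at -0.60 and RER2 at 0.54, TIR1 at 0.74 and DAN4 at -0.61. CYC7, the low-oxygen form of cytochrome c, had 229 and 162 against 832 and 512 (-1.75 ± 0.26, adjusted p = 0.00452), CYT1, cytochrome c1, was at -0.83 and AAC3 at 1.00, and COX5B was lower. Without unshocked replicate 2, 2 genes of these 6 lists were called, CYC7 and COX5B, and without unshocked replicate 1 there was 1, COX5B. Without shocked replicate 2 the calls of HAP1 (0.124), ARE1 (0.110), YEH1 (0.0919, at 0.40), YEH2 (0.0942), UBC7 (0.0889), NSG1 (0.121), NSG2 (0.0526), RER2 (0.0530) and TIR1 (0.144) ended, and without shocked replicate 1 that of NSG1 (0.0627). The call of TIR1 (adjusted p = 0.0495) also ended with no filter (0.0507), with TMM scaling (0.0565), when scaled to total reads (0.0646), in edgeR (0.0596) and in DESeq2 (0.0650), and its log2 fold change was 0.46 without unshocked replicate 2. That of YEH1 (adjusted p = 0.0490) ended with no filter (0.0515), with TMM scaling (0.0612), when scaled to total reads (0.0805) and in edgeR (0.0507). Scaled to total reads ARE1 (0.0654), YEH2 (0.0641) and NSG1 (0.0807) were not called, and in DESeq2 UBC7 (0.0553) and NSG1 (0.0924) were not. Of the a-cell markers 5 of 7 were higher after shock, by 0.45 to 0.79, beside 18.1% of all transcripts. Of the alpha-cell markers 2 of 4 were called higher, MF(ALPHA)2 (2.97 ± 0.79, adjusted p = 0.0300) and SAG1 (0.49 ± 0.13, adjusted p = 0.0271). The median of the 4 was 1.08. MF(ALPHA)2 did not pass the filter on low values for perchlorate in WT. Its call after shock, and its part in that median, are therefore uncertain. The part of these markers in the sterol values was not tested.

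The authors' deposited table of comparisons sorts transcripts into up, down and neutral classes by the size of the fold change alone. In the authors' deposited table the absolute log2 fold change was at least 0.50 in each transcript classed up or down and under that in each neutral one, and the largest adjusted p among those classed up or down was 0.889 to 1.0 over the 5 comparisons. Of the 10 genes, the authors' deposited table has 0 outside the neutral class for perchlorate in either strain, 2 were up after shock (ERG11 and ERG3), 2 were up and 1 down between untreated strains (HMG1 and ERG5 up, UPC2 down), and 2 were up and 2 down between strains in perchlorate (HMG1 and ERG5 up, UPC2 and HMG2 down). Neutral genes of the 10 with an adjusted p under 0.05 in the authors' deposited table were ERG25 for perchlorate in WT (0.0300), ERG11 (5.92e-05) and ERG3 (0.000312) for perchlorate in the mutant, ERG1, ERG5 and ERG25 after shock, ERG3, ERG11, HMG2 and NCP1 between untreated strains, and NCP1 between strains in perchlorate.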

How the data were processed

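The read counter, its strand setting and the authors' genome build are named in no source used here. The submitters' processing notes name FastQC, Trim Galore, HISAT2 and DESeq2 1.34.0, and the labels' protocols name hot phenol extraction and a directional library kit. The deposited tables hold normalized read counts, a signal scaled by the authors for each of 5 comparisons, beside the authors' log2 fold changes, p-values and adjusted p-values. Tables were scaled separately, so tests stay within a table. Dividing by the value of 1 read in a library gave whole reads for 100% of values (within 0.01), and these recovered reads served count tests, ratios and levels per coding length. Of 5970 transcripts, 5967 were used, and 3 with no entry among the authors' deposited comparison results were left out. Names matched RefSeq R64 by accession for 5941 and by locus tag for 26.

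Each comparison was tested with limma 3.58.1 (trend, moderated) in R 4.3.3 on log2(value + 1), for transcripts with a mean of at least 10, with Benjamini-Hochberg adjustment over all of them and a threshold of 0.05. Fold changes are on that scale, which understates those of low genes. The interaction used the deposited values of 8 libraries from both treatment tables. Alternatives were a pseudocount of 8, no filter, TMM and total-read scaling, edgeR 4.0.16, DESeq2 1.42.0, a replicate block and leaving out each library. For the further lists and their genes these alternatives were added after seeing the data. The fits were tested on simulated data with planted changes larger than most differences called in the 10 genes. Smaller changes were not simulated. The 10 genes and all lists were chosen with earlier results of these data known. Named were the 10 genes, called genes of the other 18 enzymes and up to 3 called genes of each further list by size of change, and other names in counts of 5 or fewer were chosen after their values were seen.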

Additional observations from a re-analysis of the deposited data

How the results depend on the processing

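Of the log2 fold changes of the 10 genes that passed the test, 125 of those under another scaling, filter, pseudocount, tool or block stayed past it and 8 did not, and 51 with 1 library left out stayed past it and 25 did not, each with the same sign. Counts of called sterol genes moved for perchlorate in WT to 2 with total-read scaling, 1 in DESeq2, 2 with the replicate block (ERG25 and UPC2) and 0 to 2 with 1 library left out. They were 2 to 6 between untreated strains (7 with all libraries) and 0 to 5 after shock (5) with 1 library left out. Calls over all transcripts with 1 library left out were 509 to 2381 for perchlorate in WT (1499 with all), 755 to 1539 between untreated strains (1277), 453 to 2066 after shock (2007) and 75 to 380 for the interaction (144), which had 222 in DESeq2. The replicate numbers are shared by label but not said to mark a batch, and the correlation of same-numbered deviations was 0.119 to 0.508 over the 5 comparisons. The replicate block gave 2458 calls for perchlorate in WT, 2482 between untreated strains, 3183 between strains in perchlorate (1818 without it) and 260 for the interaction. Of the 10 genes it also called ERG2 and ERG25 higher between untreated strains (limma, adjusted p = 0.00215 and 0.0276). Between strains in perchlorate it called ERG2 higher (0.00181) and ERG1 lower (0.0208). After shock it called ERG2 higher (0.0311) and HMG2 lower (0.0259), and for perchlorate in the mutant ERG2 lower (0.0239). The causes were not tested.

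Signs that turned belonged to genes that were not called. With total-read scaling, ERG1 was at 0.086 for perchlorate in WT and 0.10 between untreated strains, NCP1 at 0.063 and UPC2 at 0.085 for perchlorate in the mutant, and ERG3 at 0.065 and ERG11 at 0.10 between strains in perchlorate. UPC2 for perchlorate in the mutant was at 0.0014 with TMM scaling and 0.0078 in edgeR, and ERG11 for perchlorate in WT at -0.000997 in DESeq2. With 1 library left out, perchlorate in WT gave -0.16 to 0.084 for ERG1, -0.0077 to 0.22 for ERG3, -0.048 to 0.43 for ERG5, -0.16 to 0.16 for ERG11 and -0.080 to 0.17 for HMG1. Perchlorate in the mutant gave -0.062 to 0.15 for ERG5 and -0.098 to 0.086 for UPC2. Untreated strains gave -0.19 to 0.068 for ERG1, and strains in perchlorate gave -0.20 to 0.024 for ERG3 and -0.15 to 0.040 for ERG11. The interaction gave -0.20 to 0.049 for ERG1, -0.21 to 0.18 for ERG2 and -0.38 to 0.094 for ERG5. With total-read scaling the split of all calls into higher and lower was 996 and 377 for perchlorate in WT (811 and 688 in the main scaling), 1386 and 548 for perchlorate in the mutant (1020 and 892), 1063 and 376 between untreated strains (621 and 656) and 1404 and 443 between strains in perchlorate (931 and 887). With 2 libraries a group, the spread between them is poorly known, which limits the precision of every value here.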

Other observations

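Transcripts were compared across the 12 libraries, each value taken as log2(value + 1) minus the mean of its table. The 5272 searched left out all genes of the lists. Those most like UPC2 were PDR5, a drug efflux pump (Pearson r = 0.915), SLN1, an osmosensing histidine kinase (0.877), SLX4 (0.872), YIL067C (0.846) and PET122 (0.846). Among the sterol genes ERG25 was most like it (0.832), while its paralog ECM22 was at -0.720 and AUS1 at -0.729. Outside the lists, the transcripts most like the mean of the 9 enzymes were MYO4 (0.977), CLF1 (0.943), TAE1 (0.938), AIM20 (0.933) and UBP1 (0.927). Of the 9 themselves, which are part of that mean, NCP1 was highest, at 0.936, and HMG2 was at -0.416. The libraries of a group share their condition and table, so these are descriptions with no test.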
